A study of Mus musculus with 14 samples.

Results

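The genes described here are 9 interferon-stimulated genes, Ifih1, Zbp1, Stat2, Irf7, Irf9, Isg15, Ifit1, Ifit2 and Iigp1, chosen by gene symbol. They are 9 of the 24675 named genes on the arrays and have 1 probe set each. They were followed in mouse intestinal crypt cells with and without Atg7, a gene needed to build autophagosomes. RNA from 14 sorted cell samples was amplified from 1 ng and hybridised to 14 Affymetrix Mouse Gene 2.0 ST arrays. The Atg7KO mice carried homozygous floxed Atg7 alleles and the Lgr5-EGFP-IRES-CreERT2 allele, and the WT mice carried Lgr5-EGFP-IRES-CreERT2 without the floxed alleles. Tamoxifen was given to all mice for 5 days, and tissue was taken after 1 month. Cre, driven from the Lgr5 locus, could act in cells that express Lgr5 and their descendants, and both genotypes carried it. Ages were not given in the labels. Crypt cells with low CD24 were sorted from individual mice into an EGFP high gate, labelled intestinal stem cells, and an EGFP low gate, labelled transit amplifying cells. There were 3 Atg7KO-High, 3 WT-High, 4 Atg7KO-Low and 4 WT-Low samples, and samples are named by group and title number (WT-Low-411, for example). The p-values measure the spread between these samples. In 3 cases the same number occurs in both gates, and the labels do not say whether it marks the same mouse.

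Interferon-stimulated genes form the cell-intrinsic antiviral response. Sensors such as MDA5, the product of Ifih1, recognise foreign RNA in the cytoplasm and signal through the adaptor MAVS to interferon regulatory factors, which switch on interferon genes. Secreted interferon binds receptors linked to the kinases JAK1 and TYK2, and a complex that includes STAT2 and IRF9 then binds an element called ISRE in the promoters of its targets. Many sensors and factors of the pathway are themselves targets. Epithelial cells of the gut respond mainly to type III interferon, and to interferon gamma from lymphocytes.

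The promoter windows of 7 members were available from RefSeq (GRCm38.p6), as 9 windows from 250 bases before to 50 after a transcription start. Zbp1 and Iigp1 had no entry. The ISRE core was searched on both strands as GAAA, any 2 bases and GAAA, and 4 of the 7 members held at least 1 match (Ifih1, Stat2, Isg15 and Ifit1). These were 4 of the 9 windows, against 3.44% of all 32851 windows. The members were chosen as interferon-stimulated genes, so this share is not an independent result. The element bound by STAT dimers after interferon gamma, TTCNNNGAA, which reads the same on both strands, was found in a window of Ifit2, against 8.30% of all windows. These matches describe letters and not bound sites. The sequences below show the element near the transcription start, before it in Stat2, Isg15 and Ifit1 and after it in Ifih1. They run from 5′ to 3′ on the strand of the gene, with the ISRE matches in capitals, and give the bases before the start, or for Ifih1, whose match begins 32 bases after the start, the 30 bases around it. In Isg15 the 3 matches overlap, beginning 78, 72 and 66 bases before the start, and in Ifit1 the 2 matches begin 104 and 85 bases before it. The match of Stat2 begins 222 bases before the start.
Ifih1 (chr2:62646206-62646235, minus strand): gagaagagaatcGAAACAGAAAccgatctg
Stat2 (chr10:128270248-128270497, plus strand): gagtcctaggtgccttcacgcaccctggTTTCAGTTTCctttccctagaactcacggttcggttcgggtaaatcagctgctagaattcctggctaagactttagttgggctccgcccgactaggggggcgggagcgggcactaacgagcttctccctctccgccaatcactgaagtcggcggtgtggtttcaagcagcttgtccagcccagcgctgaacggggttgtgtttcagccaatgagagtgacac
Isg15 (chr4:156200819-156201068, minus strand): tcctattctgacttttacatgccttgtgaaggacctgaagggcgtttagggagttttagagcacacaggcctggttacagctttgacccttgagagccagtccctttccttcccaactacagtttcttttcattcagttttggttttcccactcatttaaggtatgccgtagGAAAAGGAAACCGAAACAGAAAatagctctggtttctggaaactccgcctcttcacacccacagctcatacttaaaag
Ifit1 (chr19:34640639-34640888, plus strand): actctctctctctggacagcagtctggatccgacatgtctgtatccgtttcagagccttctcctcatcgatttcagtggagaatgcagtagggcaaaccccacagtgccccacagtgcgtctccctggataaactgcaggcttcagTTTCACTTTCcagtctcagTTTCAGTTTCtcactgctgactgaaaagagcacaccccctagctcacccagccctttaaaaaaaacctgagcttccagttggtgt

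The labels were checked first. Atg7 read 6.14 ± 0.23 in Atg7KO-High against 6.79 ± 0.04 in WT-High samples (SD, n = 3 each), and 5.89 ± 0.20 in Atg7KO-Low against 6.91 ± 0.43 in WT-Low samples (SD, n = 4 each), on the deposited log2 scale. Neither difference was called (limma adjusted p = 0.208 and 0.166), although the groups did not overlap in either gate. The sources do not say whether the Atg7 probes lie outside the deleted exons. Lgr5 averaged 9.11 in Atg7KO-High and 9.02 in WT-High samples, and 5.79 in Atg7KO-Low and 5.50 in WT-Low samples. All 7 epithelial markers were at or above the 40th percentile on every array. Of 14 measured leukocyte markers 10 were tested, and 0 were called by limma in any comparison, with 0 to 4 at an unadjusted p under 0.05. Their mean level ranged from 4.25 to 4.36 in Atg7KO-High, 4.18 to 4.44 in WT-High, 3.95 to 4.45 in Atg7KO-Low and 4.07 to 4.35 in WT-Low samples. Ptprc, the pan-leukocyte CD45 gene, and Cd3g were below the 40th percentile on all 14 arrays. Other lymphocyte markers, Gzma, Cd8a and Gzmb, were at or above it on all 14, with Gzma at 5.35 to 7.95 in WT-Low samples. Between genotypes Gzmb differed by -0.56 (SE 0.33) in EGFP high and 0.77 (SE 0.28) in EGFP low cells. Cd8a went the other way, at 0.38 (SE 0.19) and -0.22 (SE 0.17). The arrays differed in the spread of their values, with an SD over all log2 values of 1.90 to 1.98 in Atg7KO-High, 1.99 to 2.06 in WT-High, 1.98 to 2.04 in Atg7KO-Low and 1.90 to 2.06 in WT-Low samples. The narrowest were Atg7KO-High-356 and WT-Low-411, and differences of the members that moved by over 1.5 times without either are named beside the values below or in the paragraph on single samples.

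Differences were fitted over all 4 groups with limma on 15873 genes, those that 3 or more arrays placed at or above their 40th percentile, and a gene was called at a Benjamini-Hochberg adjusted p under 0.05. Of the 9 members 8 passed this filter. Ifit2, whose product binds foreign RNA, reached the 40th percentile on 1 of 14 arrays and was not tested. Its values were 3.14, 3.40 and 3.76 in Atg7KO-High against 3.40, 3.49 and 3.82 in WT-High samples, and 3.29, 3.33, 3.39 and 3.60 in Atg7KO-Low against 2.95, 3.06, 3.11 and 3.83 in WT-Low samples, and the groups overlapped in each comparison. Isg15 reached that percentile on 9 arrays and Iigp1 on 11, and the other 6 on all 14. The samples are bulk sorts, in which fewer expressing cells and less RNA per cell cannot be told apart.

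Limma called 2 members in the 5 comparisons, Ifih1 and Zbp1, both lower in EGFP high than in EGFP low cells of Atg7KO mice. In that comparison 2 of 8 tested members fell and 0 rose, where 10.9% of all genes tested were called and 6.44% were called lower. Between genotypes 0 members were called in either gate, where 0.0126% of all genes tested were called in EGFP high and 0.0063% in EGFP low cells, and the number of members with an unadjusted p under 0.05 was 2 of 8 in EGFP high and 0 of 8 in EGFP low cells, with 15.9% and 7.26% of all genes tested below that level. The values on each array are shown by group in the plot of the 9 genes.

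**Figure D1:**
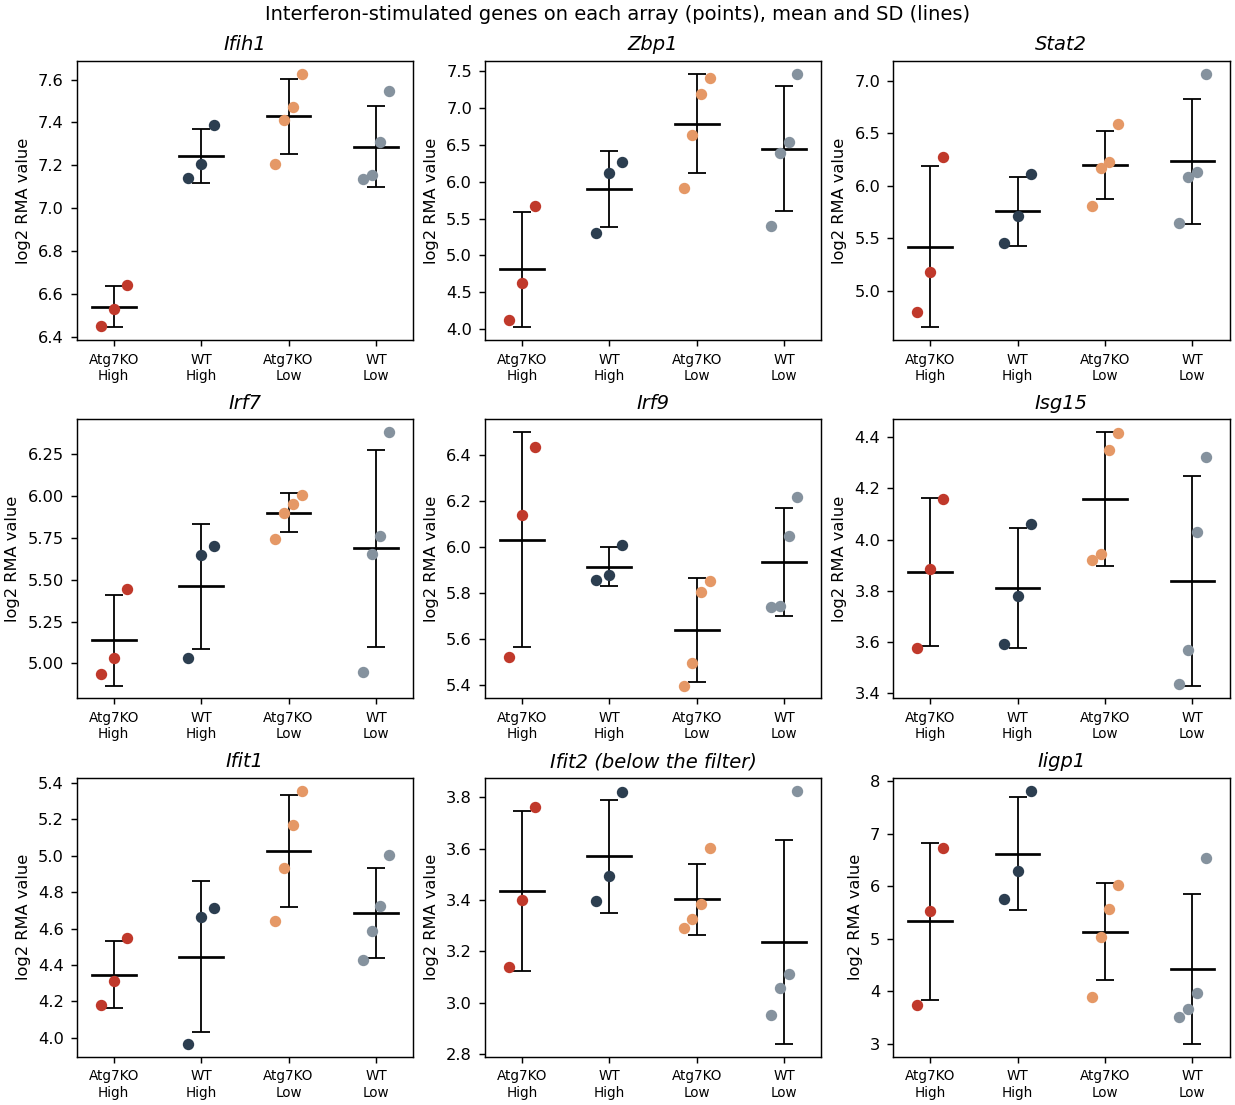
Log2 RMA value (y axis) of each of the 9 genes in Atg7KO-High, WT-High, Atg7KO-Low and WT-Low samples. Points are arrays, and lines give the mean and the SD (n = 3, 3, 4 and 4). The Atg7KO-High samples of Ifih1, at 6.45 to 6.64, lie below all other arrays, while in most other panels the groups overlap.

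Ifih1 encodes MDA5, a cytoplasmic sensor of long double-stranded RNA, and lies on chromosome 2 (62595618 to 62646255, GRCm38.p6). Its values were 6.45, 6.53 and 6.64 in Atg7KO-High against 7.14, 7.21 and 7.39 in WT-High samples, and 7.20, 7.41, 7.47 and 7.63 in Atg7KO-Low against 7.14, 7.16, 7.31 and 7.54 in WT-Low samples. All 3 Atg7KO-High samples were thus below the other 11 arrays, whose lowest value was 7.14, and the 3 other groups overlapped with each other. Against Atg7KO-Low, Ifih1 fell by 0.89 on the log2 scale in Atg7KO-High cells (SE 0.15, limma adjusted p = 0.00232), or 1.85-fold. Against WT-High it differed by -0.71 (SE 0.16, 95% interval -1.04 to -0.37, limma adjusted p = 0.131), with an unadjusted p of 0.000437. In EGFP low cells the Atg7KO minus WT difference was 0.14 (interval -0.15 to 0.43). The test of the difference of the Atg7KO effect between the gates gave -0.85 (SE 0.21, limma adjusted p = 0.195, unadjusted p = 0.000989). In WT cells EGFP high minus EGFP low was -0.04 (interval -0.35 to 0.27).

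Among the members Ifih1 had the smallest spread within groups, with a pooled SD of 0.158 against a median of 0.261 over all genes tested, and 10.5% of genes had a smaller one. With the array SD as a covariate its difference was -0.52 for Atg7KO-High minus WT-High (limma adjusted p = 0.757) and -0.74 for Atg7KO-High minus Atg7KO-Low (limma adjusted p = 0.0323). With array weights Ifih1 was called in Atg7KO-High against WT-High as well (-0.72, limma adjusted p = 0.0251), a setting that called 703 of all 15873 genes against 2 without weights. When single samples were left out its adjusted p in that comparison was 0.0793 to 0.416. The groups of 1 of 8 tested members, Ifih1, did not overlap with Atg7KO-High below WT-High, and 15.2% of all genes tested were separated in that direction.

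Zbp1 encodes a sensor of Z-form nucleic acids that can start necroptosis, a lytic form of cell death, and lies on chromosome 2 (173206612 to 173218959, GRCm38.p6). Its values were 4.13, 4.63 and 5.67 in Atg7KO-High against 5.30, 6.12 and 6.26 in WT-High samples, and 5.91, 6.63, 7.20 and 7.41 in Atg7KO-Low against 5.40, 6.38, 6.54 and 7.47 in WT-Low samples. Every Atg7KO-High sample was below every Atg7KO-Low sample, while Atg7KO-High overlapped with WT-High. Zbp1 fell by 1.98 in Atg7KO-High against Atg7KO-Low cells (SE 0.47, limma adjusted p = 0.0166), or 3.94-fold. The call rested on 2 samples, since without Atg7KO-High-356 the difference was -1.64 (limma adjusted p = 0.0889) and without Atg7KO-High-348 it was -1.89 (limma adjusted p = 0.0642). Leaving out the 2 narrowest arrays gave -1.64 (limma adjusted p = 0.0507).

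Against WT-High, Zbp1 differed by -1.09 in Atg7KO-High cells (SE 0.50, interval -2.17 to -0.01, limma adjusted p = 0.313). It differed by 0.34 between Atg7KO-Low and WT-Low (interval -0.59 to 1.28) and by -0.55 between WT-High and WT-Low (interval -1.56 to 0.46). The difference of the Atg7KO effect between the gates was -1.43 (SE 0.67, limma adjusted p = 0.356). Its spread within groups was large, at a pooled SD of 0.726.

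**Figure D2:**
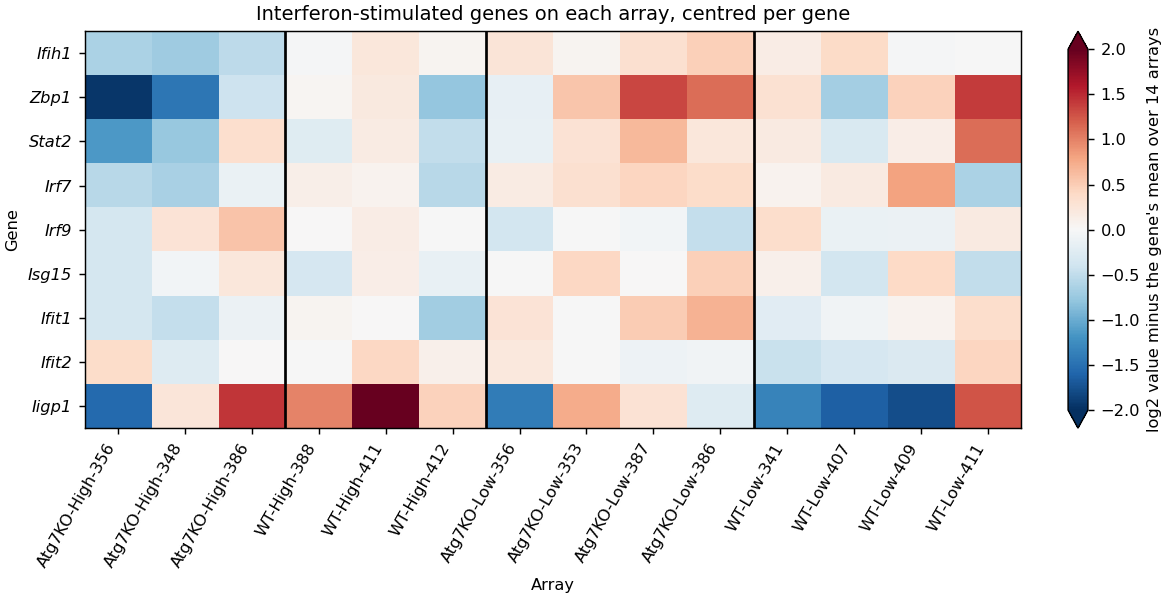
Value of each gene (rows) on each array (columns), as the log2 value minus the mean of that gene over the 14 arrays. Groups run from left to right as Atg7KO-High, WT-High, Atg7KO-Low and WT-Low. Ifih1 is below its mean on the 3 Atg7KO-High arrays, and Iigp1 differs between arrays of the same group.

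Stat2 and Irf9 encode subunits of the complex that carries the interferon signal to the ISRE, and Irf7 encodes the factor that amplifies interferon alpha transcription. Stat2 read 4.80, 5.18 and 6.28 in Atg7KO-High against 5.45, 5.71 and 6.11 in WT-High samples. In EGFP low cells it read 5.81, 6.17, 6.23 and 6.59 in Atg7KO-Low against 5.65, 6.09, 6.13 and 7.07 in WT-Low samples. The groups overlapped in both gates, and Atg7KO-High-386 was the highest EGFP high sample. Stat2 differed by -0.34 between Atg7KO-High and WT-High (interval -1.14 to 0.46) and by -0.03 between Atg7KO-Low and WT-Low (interval -0.73 to 0.66). Atg7KO-High minus Atg7KO-Low was -0.78 (SE 0.35, limma adjusted p = 0.168), and it rested on single samples. Without Atg7KO-High-356 it was -0.47 (limma adjusted p = 0.522), and without Atg7KO-High-386 it was -1.21 and called (limma adjusted p = 0.0334).

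Irf7 read 4.93, 5.03 and 5.44 in Atg7KO-High against 5.03, 5.65 and 5.70 in WT-High samples, and 5.74, 5.90, 5.95 and 6.01 in Atg7KO-Low against 4.95, 5.66, 5.76 and 6.38 in WT-Low samples. The Atg7KO-Low samples lay close together and above all Atg7KO-High samples. Atg7KO-High minus Atg7KO-Low was -0.77 (SE 0.27, limma adjusted p = 0.0802). The same difference was called without WT-Low-411 (limma adjusted p = 0.0301), without WT-Low-409 (0.0426) and in a fit of only these 2 groups (0.0341). It was not called in the other settings. With the array SD as a covariate it was -0.47 (limma adjusted p = 0.466), and without Atg7KO-High-348 it was -0.66 (limma adjusted p = 0.231). Between genotypes Irf7 differed by -0.32 in EGFP high (interval -0.94 to 0.29) and by 0.21 in EGFP low cells (interval -0.32 to 0.74). WT-Low-411 had the lowest Irf7 value of the WT-Low group, 4.95, and without it the EGFP low difference was -0.03.

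Irf9 ran the other way from the other 2 factors between the gates of Atg7KO mice, though no difference in it was called. It read 5.52, 6.14 and 6.43 in Atg7KO-High against 5.85, 5.88 and 6.01 in WT-High samples, and 5.40, 5.49, 5.80 and 5.85 in Atg7KO-Low against 5.74, 5.74, 6.05 and 6.21 in WT-Low samples. All groups compared overlapped. Its difference was 0.12 for Atg7KO-High minus WT-High (interval -0.35 to 0.59), -0.30 for Atg7KO-Low minus WT-Low (interval -0.71 to 0.11) and 0.39 for Atg7KO-High minus Atg7KO-Low (SE 0.21, limma adjusted p = 0.236).

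The effectors comprise Isg15, a ubiquitin-like protein that is conjugated to other proteins, Ifit1 and Ifit2, which bind foreign RNA and block its translation, and Iigp1, a GTPase that attacks the vacuoles of intracellular parasites in mice. Isg15 read 3.58, 3.88 and 4.16 in Atg7KO-High against 3.59, 3.78 and 4.06 in WT-High samples, and 3.92, 3.94, 4.35 and 4.42 in Atg7KO-Low against 3.44, 3.57, 4.03 and 4.32 in WT-Low samples. These values lie close to the 40th percentile of an array, 3.75 to 3.98, and the groups overlapped. Its Atg7KO minus WT difference was 0.06 in EGFP high (interval -0.45 to 0.58) and 0.32 in EGFP low cells (interval -0.13 to 0.77), and Atg7KO-High minus Atg7KO-Low was -0.28 (interval -0.77 to 0.20).

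Ifit1 read 4.18, 4.31 and 4.55 in Atg7KO-High against 3.97, 4.66 and 4.71 in WT-High samples, and 4.64, 4.93, 5.17 and 5.36 in Atg7KO-Low against 4.43, 4.59, 4.72 and 5.01 in WT-Low samples. Every Atg7KO-Low sample was above every Atg7KO-High sample, with an Atg7KO-High minus Atg7KO-Low difference of -0.68 (SE 0.22, limma adjusted p = 0.0567). It was called after quantile normalization again (-0.80, limma adjusted p = 0.0257), after cyclic loess (-0.79, 0.0286) and without Atg7KO-Low-353 (-0.81, 0.0314). The same difference was called without WT-Low-411 (limma adjusted p = 0.0461) and without WT-High-412 (0.0405). With single samples left out it ranged from -0.81 to -0.57, with an adjusted p of up to 0.182. Between genotypes Ifit1 differed by -0.10 in EGFP high (interval -0.59 to 0.39) and by 0.34 in EGFP low cells (interval -0.09 to 0.77). How probes were grouped into probe sets is not given in the sources used here, so signal shared with the related genes Ifit1bl1 and Ifit1bl2 cannot be told apart for Ifit1.

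Iigp1 varied most. Its pooled SD within groups was 1.25, larger than that of 99.8% of all genes tested. It read 3.74, 5.53 and 6.72 in Atg7KO-High against 5.75, 6.28 and 7.83 in WT-High samples, and 3.89, 5.03, 5.57 and 6.03 in Atg7KO-Low against 3.51, 3.66, 3.96 and 6.54 in WT-Low samples. Samples of 1 group thus differed by up to 3.03 on the log2 scale, and WT-Low-411, at 6.54, stood above the 3 other WT-Low samples, at 3.51 to 3.96. Between WT-High and WT-Low the difference was 2.20 (SE 0.80, limma adjusted p = 0.184), and without WT-Low-411 it was 2.91 and called (limma adjusted p = 0.0492). It was also called without both narrowest arrays, at 2.91 (limma adjusted p = 0.0222), and with array weights, at 2.38 (limma adjusted p = 0.0270), a setting that called 1201 of all genes. Without WT-High-411 its adjusted p was 0.565. Between genotypes Iigp1 differed by -1.29 in EGFP high (interval -3.11 to 0.53) and by 0.71 in EGFP low cells (interval -0.86 to 2.29), and Atg7KO-High minus Atg7KO-Low was 0.20 (interval -1.50 to 1.90). The EGFP high difference was -0.50 without Atg7KO-High-356 and -1.99 without Atg7KO-High-386, and the EGFP low difference was 1.42 without WT-Low-411 and 0.41 without WT-Low-409.

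**Figure D3:**
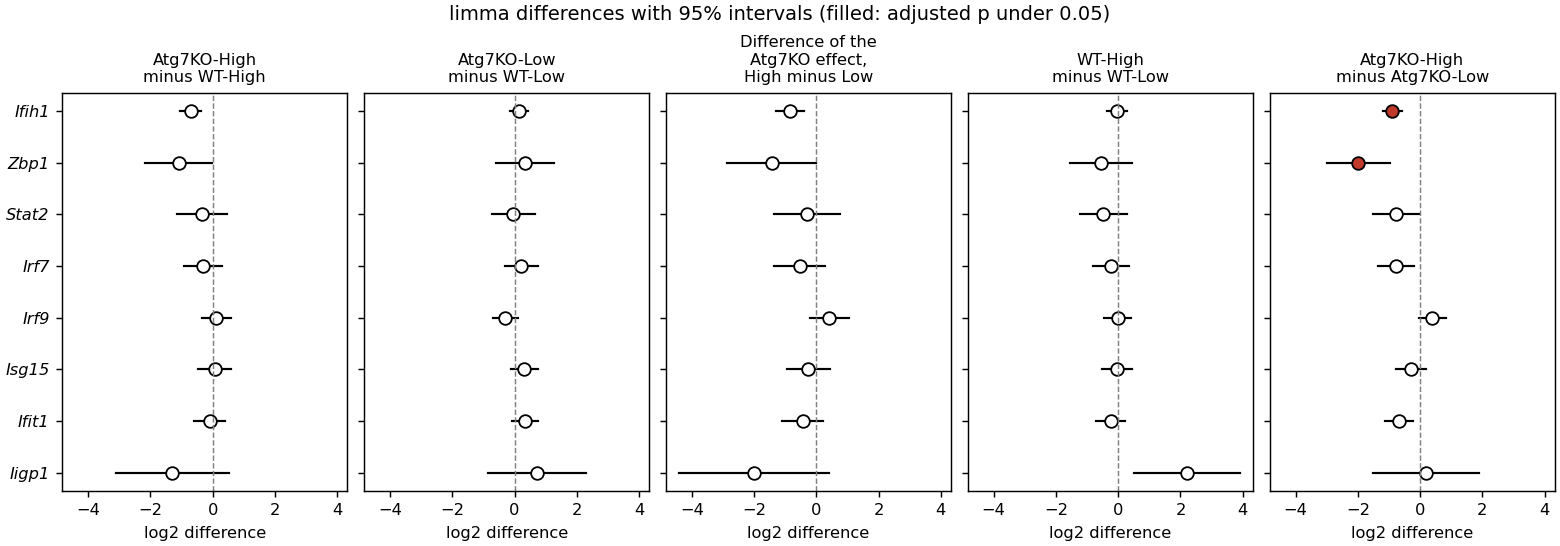
Log2 difference (x axis) of the 8 tested genes in each of the 5 comparisons, with the 95% interval from limma. Filled points passed an adjusted p under 0.05, which were Ifih1 and Zbp1 in Atg7KO-High minus Atg7KO-Low. In the first panel 6 of 8 points lie below 0, and in the second 6 of 8 lie above it.

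As a group, the tested members had a median difference of -0.33 between Atg7KO-High and WT-High, with 6 of 8 negative, against a median of -0.03 and 53.8% negative over all genes tested. Between Atg7KO-Low and WT-Low the median was 0.27, with 6 of 8 positive, against 0.00 over all genes. The difference of the Atg7KO effect between the gates had a median of -0.49, with 7 of 8 negative, against -0.03 over all genes. Limma called 0 of 8 members for that difference, 2 had an unadjusted p under 0.05, where 14% of all genes had one, and 0.0063% of all genes were called. Both contrasts enter this difference, so its sign is not independent of theirs.

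Between the gates of WT mice the median was -0.13 with 7 of 8 negative, against 0.03 over all genes. Limma called 0 of 8 members in WT-High against WT-Low, 1 had an unadjusted p under 0.05 (Iigp1), where 14.8% of all genes had one, and 2.44% of all genes were called. Between the gates of Atg7KO mice the median was -0.72, against 0.02 over all genes, with 6 of 8 negative and 5 at an unadjusted p under 0.05, where 27% of all genes had one. In 4 of 8 members (Ifih1, Zbp1, Irf7 and Ifit1) every Atg7KO-High sample was below every Atg7KO-Low sample, where 11.8% of all genes tested were separated in that direction.

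The members did not move evenly over the arrays. After centring each tested member on its own mean, their mean level was -0.86 on Atg7KO-High-356, -0.45 on Atg7KO-High-348 and 0.17 on Atg7KO-High-386, against -0.27 to 0.43 on the WT-High arrays. It was -0.17 to 0.43 on the Atg7KO-Low and -0.33 to 0.40 on the WT-Low arrays. Atg7KO-High-386 was the highest sample of its group for 8 of the 9 members. WT-High-411 was the highest of its group for 7 of 9 members and WT-High-412 the lowest for 6. The SD of this mean within groups was 0.356. It gives the spread of single samples, and not the error of a difference between group means or of the median differences above.

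Single samples also set several differences that were not called. Without Atg7KO-High-356 the Atg7KO-High minus WT-High difference was -0.028 for Stat2, 0.37 for Irf9 and 0.21 for Isg15, and the Atg7KO-High minus Atg7KO-Low difference was 0.65 for Irf9, -0.14 for Isg15 and 0.99 for Iigp1. For the difference between the gates its omission gave 0.0066 for Stat2, 0.67 for Irf9, -0.11 for Isg15 and -1.21 for Iigp1. Without WT-Low-411 the Atg7KO-Low minus WT-Low difference was 0.68 for Zbp1, 0.24 for Stat2 and 0.18 for Isg15. Its omission moved WT-High minus WT-Low to -0.21 for Zbp1, -0.20 for Stat2, -0.47 for Irf7, -0.16 for Isg15, -0.13 for Ifit1, -0.086 for Ifih1 and 0.015 for Irf9, and the difference between the gates to -0.58 for Stat2, -0.29 for Irf7 and -0.12 for Isg15. None of these differences was called with or without these samples.

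Markers of other crypt cells moved with the gate, and in EGFP high cells most were lower in Atg7KO than in WT samples. In Atg7KO-High against WT-High 8 of 8 goblet cell markers were negative (median -0.93, 4 at an unadjusted p under 0.05), 9 of 9 enterocyte markers (median -0.63, 3 under 0.05) and 6 of 7 Paneth cell markers (median -0.59, 4 under 0.05), and limma called 0 of each. Enteroendocrine markers were 4 of 8 negative (median -0.03). The general epithelial markers were also 7 of 7 negative (median -0.22, 1 under 0.05, 0 called by limma). Of these 7 markers 2 fell in Atg7KO-High against Atg7KO-Low, Krt19 and Krt8. Of 12 Lgr5 stem cell markers 7 were positive in Atg7KO-High against WT-High (median 0.05, 1 under 0.05, 0 called by limma). Of 8 goblet cell markers 8 fell in Atg7KO-High against Atg7KO-Low, with mean levels of 8.39 to 10.3 in Atg7KO-High, 9.90 to 10.4 in WT-High, 11.2 to 11.6 in Atg7KO-Low and 11.4 to 11.9 in WT-Low samples. In WT-High against WT-Low 5 of these 8 fell. Of 9 enterocyte markers 6 fell in Atg7KO-High against Atg7KO-Low, with mean levels of 7.45 to 7.58 in Atg7KO-High, 7.55 to 8.99 in WT-High, 8.41 to 9.79 in Atg7KO-Low and 8.63 to 9.25 in WT-Low samples. Limma called 0 of these 9 in WT-High against WT-Low, with 4 at an unadjusted p under 0.05. Of 7 Paneth cell markers 4 fell in Atg7KO-High against Atg7KO-Low, with mean levels of 8.52 to 10.0 in Atg7KO-High, 9.92 to 10.6 in WT-High, 9.80 to 10.7 in Atg7KO-Low and 10.4 to 11.4 in WT-Low samples, and 0 were called between the WT gates, with 2 at an unadjusted p under 0.05. Of 8 enteroendocrine markers 5 fell between the gates of Atg7KO and 3 between those of WT mice, with mean levels of 6.45 to 8.60 in Atg7KO-High, 7.11 to 7.93 in WT-High, 8.81 to 9.94 in Atg7KO-Low and 8.65 to 9.67 in WT-Low samples. All markers of the goblet, enterocyte, Paneth and enteroendocrine lists were at or above the 40th percentile on every array. Their part in the differences of the members, between gates or between genotypes, was not tested.

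**Figure D4:**
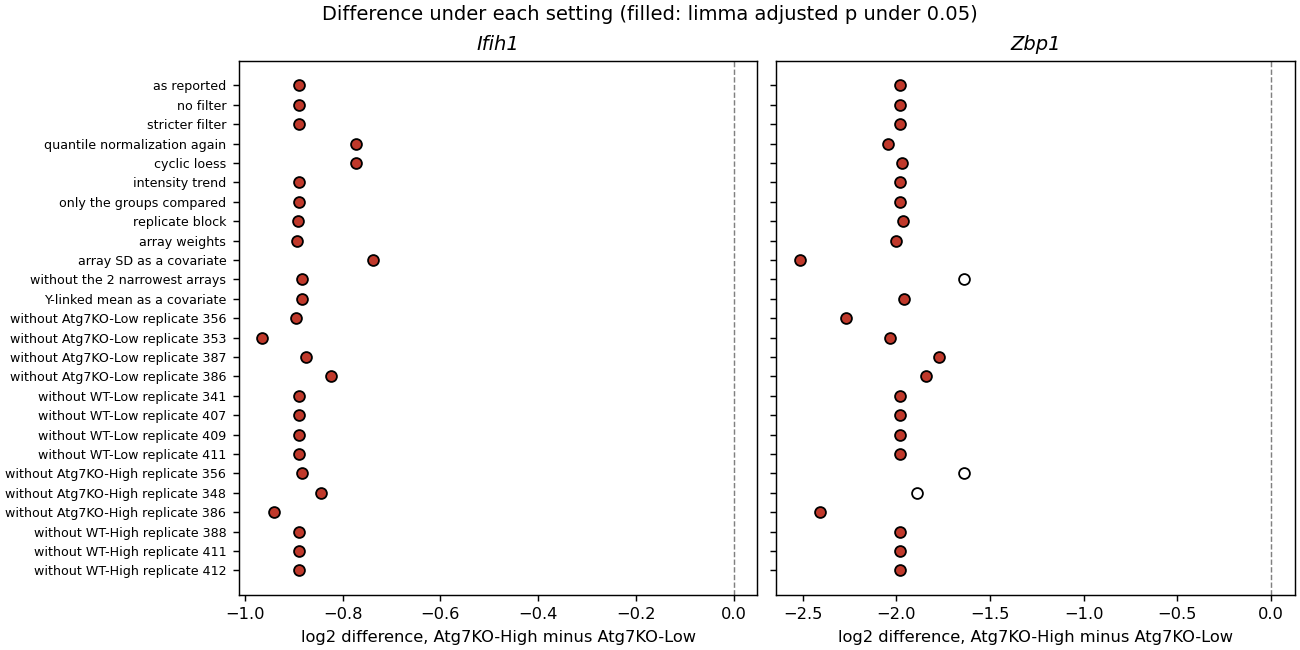
Atg7KO-High minus Atg7KO-Low log2 difference (x axis) of Ifih1 and Zbp1 as reported and under each other setting (rows). Filled points had a limma adjusted p under 0.05. Ifih1 was filled in every row, and Zbp1 was open without Atg7KO-High-356, without Atg7KO-High-348 and without the 2 narrowest arrays.

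Other genes of the pathway were taken from lists by function. Counts in these lists and in the marker lists are to be read beside the shares over all genes tested. Calls of single genes in these lists were not repeated under the other settings. In Atg7KO-High against WT-High 53.8% were negative and 15.9% had an unadjusted p under 0.05. For Atg7KO-Low against WT-Low these shares were 49.7% and 7.26%. Between the gates 10.9% were called in Atg7KO mice, with 6.44% lower, and 2.44% were called in WT mice. Of 41 other interferon-stimulated genes 32 were tested, and in Atg7KO-High against WT-High 24 of them were negative, with a median of -0.26. Limma called 0, and 9 had an unadjusted p under 0.05. The smallest p-values belonged to Dtx3l, a ubiquitin ligase that pairs with PARP9 (-0.89, SE 0.21, limma adjusted p = 0.131), Parp12 (-0.73, SE 0.20), whose product is an antiviral ADP-ribosyltransferase, and Parp9 (-0.82, SE 0.27). Parp12 averaged 5.63 ± 0.28 in Atg7KO-High and 6.36 ± 0.08 in WT-High samples (SD, n = 3 each). In Atg7KO-Low against WT-Low 25 of 32 were positive, with a median of 0.18, 0 called and 1 at an unadjusted p under 0.05. The smallest p-values were those of Parp12 (0.41, SE 0.17), Parp9 (0.44, SE 0.23) and Ifi27l2a (0.84, SE 0.45).

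Between the gates of Atg7KO mice 6 of these 32 genes fell and 1 rose, where 6.44% of all genes tested were called lower. Parp12 fell by 1.87 (SE 0.19, limma adjusted p = 0.000139), Oas1g, one of the synthetases that activate RNase L, by 3.01 (SE 0.60, limma adjusted p = 0.00662), and Ddx60 by 1.21 (SE 0.28, limma adjusted p = 0.0145). As the probe grouping is not given, signal shared with the related gene Oas1a cannot be told apart for Oas1g. The 1 that rose was Ifitm3, which blocks virus entry, at 0.56 (SE 0.15, limma adjusted p = 0.0313), named after its value was seen. Ifitm3 was also higher in EGFP high than EGFP low cells of WT mice, where it rose by 1.00 (SE 0.15, limma adjusted p = 0.00504) and was the 1 gene called of the 32.

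Genes induced mainly by interferon gamma had 18 tested of 24 listed. In Atg7KO-High against WT-High 15 of 18 were negative, with a median of -0.43. Limma called 0 of the 18, and 3 had an unadjusted p under 0.05, where 15.9% of all genes tested had one. Gbp8, a guanylate-binding GTPase, differed by -1.10 (SE 0.33, limma adjusted p = 0.180), and the immunoproteasome subunits Psmb9 and Psmb8 by -0.58 (SE 0.25) and -0.71 (SE 0.31). In Atg7KO-Low against WT-Low 15 of 18 were positive, with a median of 0.20, 0 called and 1 at an unadjusted p under 0.05, which was Ido1, a tryptophan-degrading enzyme (0.80, SE 0.30). All 18 were positive in WT-High against WT-Low, with a median of 0.48, where 45.3% of all genes tested were negative. Of the 18, 1 rose, Ciita, the activator of MHC class II genes (1.09, SE 0.26, limma adjusted p = 0.0385). Between the gates of Atg7KO mice 10 of 18 were positive, with a median of 0.05. In that comparison Irgm1, a GTPase related to Iigp1, fell by 0.81 (SE 0.24, limma adjusted p = 0.0480), and no other gene of the list was called.

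**Figure D5:**
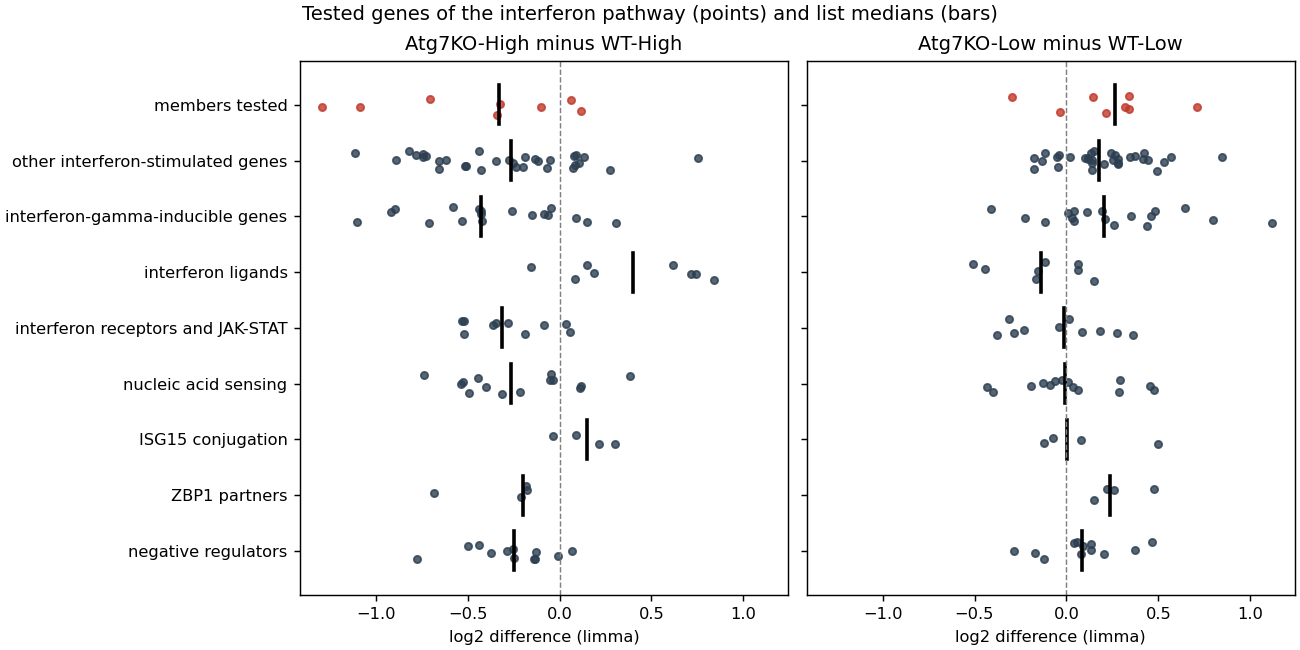
Log2 difference (x axis) of tested genes of each pathway list (rows) for Atg7KO-High minus WT-High and Atg7KO-Low minus WT-Low. Points are genes and bars are list medians, with the described genes in the top row. The median of the other interferon-stimulated genes was -0.26 on the left and 0.18 on the right.

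Upstream of the response, 8 of 21 listed interferon ligand genes were tested, and these are dim on the arrays, with a mean level over 17 measured genes of 4.23 to 4.47 in Atg7KO-High and 4.06 to 4.23 in WT-High samples. In Atg7KO-High against WT-High 7 of 8 were positive (median 0.40), 0 were called by limma and 2 had an unadjusted p under 0.05, Ifna7 (0.62, SE 0.17) and Ifna14 (0.84, SE 0.29). Both rose in Atg7KO-High against Atg7KO-Low, Ifna14 by 1.16 (SE 0.27, limma adjusted p = 0.0136) and Ifna7 by 0.59 (SE 0.16, limma adjusted p = 0.0264). The interferon alpha genes are near copies of each other, so which of them gives this signal is uncertain. In every group but Atg7KO-Low the mean level of the measured ligands was highest on the array with the narrowest spread of values. The calls of these ligands were not repeated under the other settings, so the part of array spread in them was not tested. Of 10 tested receptor and JAK-STAT genes 0 were called by limma in any comparison. In Atg7KO-High against WT-High 2 had an unadjusted p under 0.05 and 8 were negative. The 2 were the kinase Jak1 (-0.52, SE 0.18) and the transcription factor Stat3 (-0.53, SE 0.25). The interferon gamma receptor chain Ifngr2 differed by -0.52 (SE 0.25, limma adjusted p = 0.323).

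Of 14 tested nucleic acid sensing genes 2 fell in Atg7KO-High against Atg7KO-Low, Ticam1, the adaptor of the receptor TLR3 (-1.17, SE 0.26, limma adjusted p = 0.0107), and Irf8 (-0.78, SE 0.21, limma adjusted p = 0.0298). In Atg7KO-High against WT-High 0 were called and 4 had an unadjusted p under 0.05, among them Irf8 (-0.74, SE 0.23) and Myd88 (-0.54, SE 0.18). Of 12 genes that restrain the response 11 were negative in Atg7KO-High against WT-High (median -0.25, 3 at an unadjusted p under 0.05). In Atg7KO-Low against WT-Low 9 were positive (median 0.09, 2 under 0.05), and limma called 0 in either. Among these 12, Samhd1, which depletes deoxynucleotides, fell between the gates in both genotypes. It differed by -1.21 (SE 0.17, limma adjusted p = 0.000921) in Atg7KO and by -0.72 (SE 0.17, limma adjusted p = 0.0402) in WT mice, and by -0.78 between Atg7KO-High and WT-High (SE 0.18, limma adjusted p = 0.131). Of 4 tested genes of ISG15 conjugation 0 were called by limma in any comparison, with 0 or 1 at an unadjusted p under 0.05. Of 4 tested partners of ZBP1 1 fell in Atg7KO-High against Atg7KO-Low, Mlkl, which encodes the protein that ruptures membranes in necroptosis (-1.21, SE 0.37, limma adjusted p = 0.0497). The 2 groups overlapped for Mlkl, with an SD of 0.92 in Atg7KO-High samples.

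The genes whose values over the 14 arrays were most like the mean of the 8 tested members, by Pearson correlation and leaving out the members and predicted genes, were Mlkl (r = 0.91), Xaf1 (0.90), Irgm1 (0.88), Unc93b1 (0.86) and Vps36 (0.86). The arrays share gates, genotypes and array quality, so these values describe likeness and were not tested. Mlkl averaged 5.19 in Atg7KO-High and 5.87 in WT-High samples, and 6.40 in Atg7KO-Low and 5.92 in WT-Low samples. Xaf1, an interferon-induced gene linked to apoptosis, averaged 5.49 in Atg7KO-High against 6.23 in WT-High samples, and 6.22 in Atg7KO-Low against 6.20 in WT-Low samples. Among the members the correlation with that mean, of which each is a part, was highest for Zbp1 and Stat2 and lowest for Irf9 (0.22).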

How the data were processed

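The authors deposited log2 values for each probe set on each array. The submitters' processing notes name Affymetrix Expression Console and RMA. RMA corrects background, quantile normalizes and summarises probes, which can narrow large differences. Tool versions and the probe grouping are not given in the sources used. Of 25429 probe sets, 24675 have 1 gene symbol in the platform annotation, 0 several, and 754 were left out as unnamed. Arrays give no read depth, and their number limits the precision.

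Group means were fitted with limma 3.58.1 (lmFit, eBayes) in R 4.3.3 over 14 arrays, with 10 residual and 4.54 prior degrees of freedom and two-sided p-values adjusted over 15873 genes. Intervals are 95% intervals of this fit. The fit was tested on simulated data. The members, lists and tests were chosen with earlier results of these data known. The genes named are all members, up to 3 genes with the smallest p of each list and comparison, and the 5 most like the members. Alternatives covered the filter, normalization, prior, groups in the fit, a block, array quality, Y-linked genes and leaving out each sample. The mean of the Y-linked genes was 6.46 to 7.05 on Atg7KO-High-348, WT-High-388, Atg7KO-Low-353, WT-Low-407 and WT-Low-409. It was 2.67 to 3.06 on the other arrays, so each group mixed samples with high and low Y-linked signal.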

Additional observations from a re-analysis of the deposited data

Results flagged for a closer look

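Iigp1 had 1 array far from the others of its group. In WT-Low samples WT-Low-411 read 6.54 for Iigp1, and the gap to the next sample was 0.852 of the range of the group, above the limit of Dixon's test. The members were examined in this way in 18 groups of 4 samples, and chance flags about 5% of such groups. WT-Low-411 was also 1 of the 2 arrays with the narrowest spread of values. It was the highest WT-Low sample for 5 of the 9 members and the lowest for 2. Groups of 3 samples were not examined.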

How the results depend on the processing

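The count of members called for Atg7KO-High minus Atg7KO-Low was 1 without the 2 narrowest arrays and 1 to 4 when single samples were left out. For WT-High minus WT-Low it was 1 with array weights and 1 without the 2 narrowest arrays, and 0 to 1 when single samples were left out, and for Atg7KO-High minus WT-High it was 1 with array weights. Of the 8 tested members 0 were called for Atg7KO-Low minus WT-Low or for the difference between the gates in any setting. The median member difference kept its sign in every setting. When single samples were left out it was -0.62 to -0.18 for Atg7KO-High minus WT-High and 0.16 to 0.36 for Atg7KO-Low minus WT-Low. It moved by less than 0.356, the SD of the member mean within groups, in every setting. That limit is larger than the medians of -0.33 and 0.27 between genotypes and -0.13 between the WT gates, so it says little about these. The number of all genes called ranged from 495 to 2122 for Atg7KO-High minus Atg7KO-Low (1734 as reported), 103 to 1201 for WT-High minus WT-Low and 1 to 703 for Atg7KO-High minus WT-High (2). For Atg7KO-Low minus WT-Low it was 0 to 2 (1) and for the difference between the gates 1 to 4 (1). Isg15 and Ifit1 had no value under the stricter filter, which they did not pass. Members that were not called changed sign in some settings, and the cause was not tested. Array SD as a covariate gave Irf7 0.040 (Atg7KO-High minus WT-High), Stat2 0.035 (Atg7KO-Low minus WT-Low), Isg15 0.21 (the difference between the gates), Isg15 0.037 (Atg7KO-High minus Atg7KO-Low), Iigp1 -0.34 (Atg7KO-High minus Atg7KO-Low). Quantile normalization again gave Isg15 -0.053 (Atg7KO-High minus WT-High), Isg15 0.0063 (WT-High minus WT-Low). Cyclic loess gave Isg15 -0.064 (Atg7KO-High minus WT-High), Isg15 0.0088 (WT-High minus WT-Low). Array weights gave Ifit1 0.048 (Atg7KO-High minus WT-High), Stat2 0.17 (Atg7KO-Low minus WT-Low). Leaving out the 2 narrowest arrays gave Stat2 0.24 (Atg7KO-Low minus WT-Low), Irf7 -0.032 (Atg7KO-Low minus WT-Low), Isg15 0.026 (the difference between the gates), Irf9 0.015 (WT-High minus WT-Low). Others changed sign when a sample was left out. For Atg7KO-High minus Atg7KO-Low these ranges were Iigp1 -0.50 to 0.99. For Atg7KO-High minus WT-High these ranges were Ifit1 -0.34 to 0.032, Irf9 -0.084 to 0.37, Isg15 -0.080 to 0.21. For Atg7KO-Low minus WT-Low these ranges were Irf7 -0.032 to 0.45, Stat2 -0.23 to 0.24, Zbp1 -0.0092 to 0.68. For WT-High minus WT-Low these ranges were Ifih1 -0.11 to 0.044, Ifit1 -0.37 to 0.0015, Irf7 -0.47 to 0.0053, Irf9 -0.087 to 0.071, Isg15 -0.16 to 0.13. For the difference between the gates these ranges were Stat2 -0.73 to 0.0066. The same title number occurs in both gates in 3 pairs, and the deviations from the group means correlated at 0.11 for Atg7KO-High-356 with Atg7KO-Low-356, 0.18 for Atg7KO-High-386 with Atg7KO-Low-386 and -0.04 for WT-High-411 with WT-Low-411 over all genes tested. In both Atg7KO pairs each sample was the best match of the other, and in the WT pair it was not. The member mean was lowest in both Atg7KO gates on the first pair, and highest in both WT gates on the WT pair. The other Atg7KO pair was not at the same end in both gates. Whether a pair came from the same mouse was not established, and the reported fit treated the samples as unrelated. With the replicate block 3 members were called for Atg7KO-High minus Atg7KO-Low, Ifit1 being added (-0.68, limma adjusted p = 0.0468).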
